A study of Mus musculus with 8 samples.

Results

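The genes described here are 8 interferon regulatory factors (Irf1, Irf2, Irf3, Irf4, Irf5, Irf7, Irf8 and Irf9) and Ifnb1, the gene of interferon beta. They were chosen by name, with earlier results of these data known. Each had 1 probe set, so they make up 9 of the 19505 genes measured. All 8 arrays hybridised biotin-labelled total RNA of mesenchymal stromal cells, fibroblast-like cells of connective tissue, taken from the inguinal fat of FVB males at 12 months of age. Every culture had received the lentiviral backbone pLKO.1, which delivers short hairpin RNA. It was an empty vector on 2 arrays, carried a scrambled hairpin on 2 (scramble) and a hairpin against Irf7 on 4 (shIRF7). An uninfected group was not analysed here, so all groups share the infection. The hairpin sequence, and whether replicates were separate cultures, infections or animals, are not stated in the labels, so p-values measure only how far these arrays scatter, and that scatter may be technical.

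Interferon regulatory factors are transcription factors that share a DNA-binding domain with a row of tryptophans and bind repeats of the letters GAAA. Irf3 is present in most cells and, once phosphorylated after sensing of foreign nucleic acid, switches on Ifnb1. Interferon beta then acts through its receptor on ISGF3, a complex that contains Irf9, which raises many genes, Irf7 among them. Irf7 in turn drives further type I interferon genes, so Irf7 and Irf9 sit on either side of a positive loop. Irf1 activates and Irf2 mostly restrains overlapping targets, while Irf4, Irf5 and Irf8 act mainly in blood cells.

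Values are RMA values on the log2 scale, where a difference of 1 is a factor of 2, and background was read from 5222 negative control probe sets. The negative control median lay between 4.18 and 4.56 on the 8 arrays and its 95th percentile between 7.93 and 8.72. That percentile is strict, since 31.6% to 36.8% of named genes exceeded it. Median, percentile and replicate number moved together: in replicates 1 and 2 of every group the medians were 4.18 to 4.26 and 4.55 to 4.56, so differences within replicates 1 and 2 are given beside the pooled ones. Of 10 measured stromal markers 8, including Pdgfrb, Col1a1, Eng and Cd44, exceeded the percentile on all arrays, while Thy1 did so on 2 arrays and Nt5e on none. None of 12 macrophage and monocyte markers, 7 T and natural killer cell markers or 6 endothelial markers exceeded it on any array. Of 8 B cell and plasmacytoid dendritic cell markers Tcf4 exceeded it on 8 arrays and Bst2, which is also an interferon-stimulated gene, on 4. Among 5 adipocyte markers Fabp4 exceeded it on 4 arrays. The log2 of the summed stromal marker signal was 18.4 to 18.9 in the controls and 18.1 to 18.4 in shIRF7, that of the macrophage markers 7.38 to 7.69 and 7.36 to 7.58, and that of the adipocyte markers 8.36 to 9.07 and 7.49 to 9.16. The part of these shifts in the results below was not tested.

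**Figure D1:**
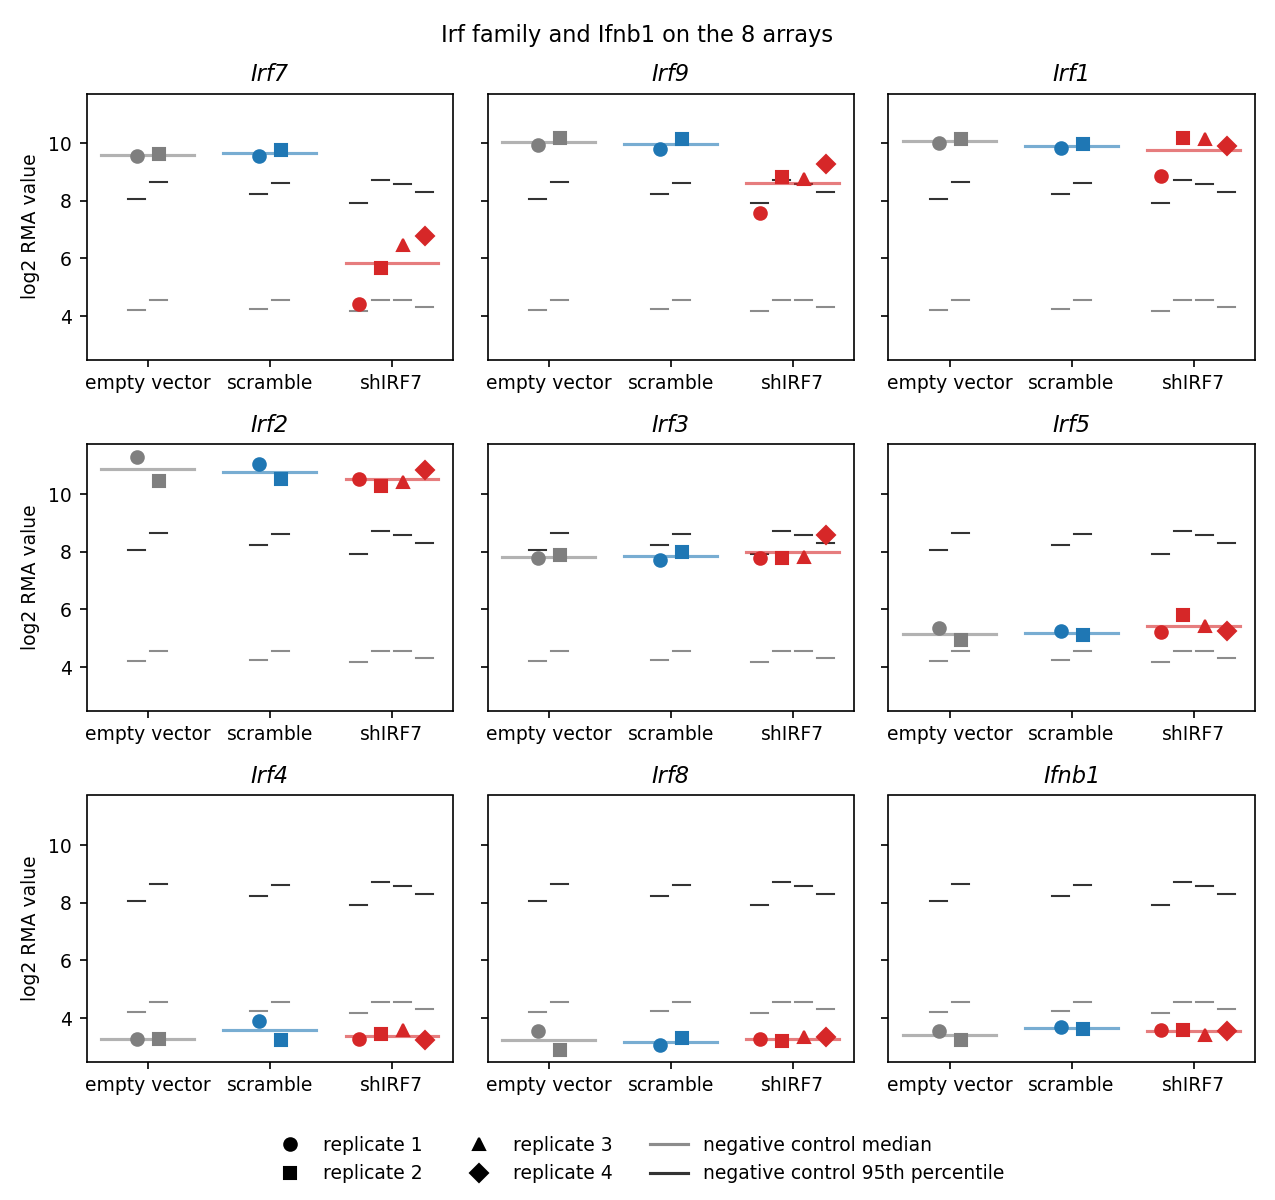
Log2 RMA value (y axis) of each of the 9 genes on the 8 arrays, by group on the x axis. Points are arrays with the replicate number as the symbol, coloured lines are group means, and short grey and dark lines are the negative control median and 95th percentile of that array. Irf7 and Irf9 are lower in shIRF7 than in every control array, and Irf4, Irf8 and Ifnb1 lie under the negative control median throughout.

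Irf7 and Irf9 were the 2 members whose shIRF7 values all lay below all control values, and 0 of 9 members lay above. Among all genes 2.8% lay wholly below and 2.58% wholly above. At an adjusted p under 0.05 in limma 0 of 9 members passed in shIRF7 against both controls, where 0.0308% of all genes did, and at an unadjusted p under 0.05 2 of 9 passed (Irf7 and Irf9), where 8.12% of all genes did. The count of 2 members below all controls was the same without each of the 8 arrays in turn, while the share of all genes wholly below went up to as much as 6.05% (without shIRF7 replicate 1). In bulk RNA, fewer cells that express a gene and less RNA per cell cannot be told apart.

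Irf7, the targeted gene, measured 9.55 and 9.61 with empty vector, 9.56 and 9.76 with scramble, and 4.42, 5.66, 6.47 and 6.79 in shIRF7 replicates 1 to 4. The highest shIRF7 array was 2.76 below the lowest control, a gap far wider than the 0.209 that separated the 4 controls. As measured, the shIRF7 signals were 2.71%, 6.44%, 11.3% and 14.0% of the control mean, but none of them exceeded the 95th percentile of negative controls, so they set no order of knockdown among the replicates. Within the negative controls of the same array the shIRF7 values stood at percentiles 55.6, 71.4, 82.1 and 87.7, against at least 97.1 in every control array. The limma difference was -3.79 (SE 0.48, n = 4 against 4, adjusted p = 0.0692), or 13.8-fold. With the shIRF7 values raised to the 95th percentile of their own arrays, the fold of the means was 2.34. This bound concerns background only and carries no sampling error. The exact two-sided permutation test of 4 against 4 arrays gave p = 0.0286, the smallest that its 70 assignments allow. Every gene whose groups do not overlap gets this p, so it adds nothing to the lack of overlap (2.8% of all genes below, 2.58% above). The difference in Irf7 was -3.82 against scramble (adjusted p = 0.238 in limma) and -3.75 against empty vector (adjusted p = 0.252), while scramble and empty vector differed by 0.076 (95% interval -1.51 to 1.66). The adjusted p over all alternatives ranged from 0.0143 to 0.316 and passed without shIRF7 replicate 1 (difference -3.31, adjusted p = 0.0254), the array with the lowest measured Irf7.

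Irf9, the DNA-binding subunit of ISGF3, measured 9.93 and 10.18 with empty vector, 9.80 and 10.14 with scramble, and 7.59, 8.83, 8.77 and 9.29 in shIRF7 replicates 1 to 4. All shIRF7 arrays were below all controls, by at least 0.512. As measured, they retained 18.6%, 43.9%, 42.2% and 60.5% of the mean control signal. Replicate 1 was lowest and replicate 4 highest for Irf9. Irf9 exceeded the 95th percentile of negative controls on 7 of 8 arrays, the exception being shIRF7 replicate 1. The 18.6% of that array is therefore uncertain. With its value raised to the percentile the fold of the means was 2.48, which carries no sampling error. Mean Irf9 was 10.01 ± 0.18 over the control arrays (SD, n = 4) and 8.62 ± 0.72 over the shIRF7 arrays (SD, n = 4). The limma difference was -1.40 (SE 0.35, 95% interval -2.21 to -0.59, 2.63-fold, adjusted p = 0.319), and 1.00% of all genes differed by more in either direction. The exact permutation test of Irf9 gave the same smallest p, 0.0286, as it must where groups do not overlap. Replicate 1 alone gave -2.27 and replicate 2 alone -1.34, and without shIRF7 replicate 1 it was -1.05 (adjusted p = 0.111). Against scramble it was -1.35 (adjusted p = 0.638) and against empty vector -1.44 (adjusted p = 0.671), and the controls differed by -0.083. Over all alternatives the difference ranged from -1.81 to -1.05 and the adjusted p from 0.0137 to 0.715.

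Irf1, an early interferon-induced activator of antigen presentation genes, measured 10.003 and 10.16 with empty vector, 9.83 and 9.97 with scramble, and 8.87, 10.17, 10.15 and 9.90 in shIRF7. A single array, shIRF7 replicate 1, lay 1.20 below the mean of the other shIRF7 arrays, and those lay within or just above the range of the controls. The difference was -0.22 (SE 0.30, adjusted p = 0.917 in limma), with -1.05 within replicate 1 and 0.11 within replicate 2. Without shIRF7 replicate 1 it was 0.084. The array with the lowest Irf9 was thus also the one with the lowest Irf1. The 95% interval, -0.91 to 0.47, leaves room for a fall of up to 1.87-fold or a rise of up to 1.39-fold.

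Irf2, the counterpart that competes with Irf1 for its sites, measured 11.31 and 10.45 with empty vector, 11.04 and 10.53 with scramble, and 10.54, 10.30, 10.43 and 10.83 in shIRF7. The controls were split by replicate number, with replicate 2 lower than replicate 1 by 0.684 on average, more than the difference between shIRF7 and the controls (-0.31, SE 0.24, adjusted p = 0.827 in limma). The shIRF7 values overlapped those of the controls, and replicates 1 and 2 taken singly gave -0.63 and -0.19. It was -0.091 without empty vector replicate 1 and -0.52 without empty vector replicate 2. Of the 9 members Irf2 had the widest spread among the 4 controls (0.86).

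Irf3, the factor that starts Ifnb1 transcription, measured 7.79 and 7.88 with empty vector, 7.73 and 8.01 with scramble, and 7.79, 7.80, 7.81 and 8.58 in shIRF7. Of the shIRF7 arrays 3 sat at nearly the same level inside the control range, and replicate 4 stood above all other arrays. The values lay between percentiles 91.7 and 95.5 of the negative controls, and only shIRF7 replicate 4 exceeded the 95th. The difference was 0.14 (SE 0.21, 95% interval -0.35 to 0.64, adjusted p = 0.922 in limma) and turned to -0.049 without shIRF7 replicate 4. As measured, a fall of over 1.27-fold or a rise of over 1.56-fold lies outside that interval. RMA compresses differences near background, so the interval does not exclude a larger true change in Irf3.

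Irf5, a mediator of Toll-like receptor signalling in myeloid cells, ranged from 4.95 to 5.35 in the controls and measured 5.23, 5.79, 5.42 and 5.24 in shIRF7. It was above the negative control median on all arrays and above the 95th percentile on none. The difference was 0.26 (SE 0.18, adjusted p = 0.797 in limma), with -0.068 within replicate 1 and 0.77 within replicate 2, and the groups overlapped. Irf4, which guides lymphocyte differentiation, lay between 3.24 and 3.90 on the 8 arrays. Irf8, which guides monocytes and dendritic cells, lay between 2.91 and 3.56. Both were under the negative control median on every array, so no fold is given. Their differences were -0.028 (SE 0.18) and 0.081 (SE 0.17), and macrophage and B cell genes such as Ptprc, Csf1r and Cd79a were also never above the 95th percentile.

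Ifnb1 measured 3.54 and 3.25 with empty vector, 3.68 and 3.61 with scramble, and 3.60, 3.60, 3.42 and 3.56 in shIRF7. It too was under the negative control median on every array, at percentiles 18.0 to 34.4 of the negative controls, and the groups overlapped. The difference was 0.028 (SE 0.13, adjusted p = 0.98 in limma). A change in Ifnb1 was not detectable at this signal.

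**Figure D2:**
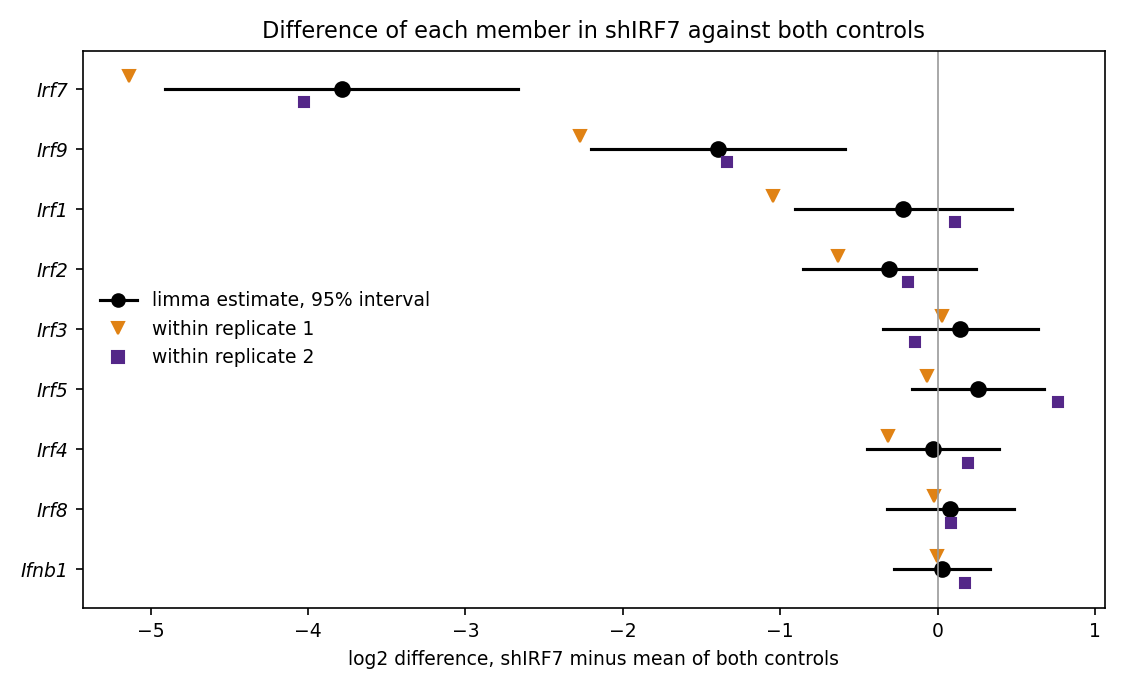
Log2 difference (x axis) of each gene in shIRF7 minus the mean of both controls. Circles and bars are limma estimates with 95% intervals over 8 arrays. Triangles and squares are the differences within replicates 1 and 2, which are not taken as matched pairs. The intervals of Irf7 (-4.91 to -2.66) and Irf9 (-2.21 to -0.59) lie wholly below 0 and those of the other 7 genes cross it.

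The 2 controls were also compared for each member. Against scramble 0 of 9 members passed an adjusted p under 0.05 in limma (0.00513% of all genes did) and 2 of 9, Irf7 and Irf9, an unadjusted p under 0.05 (6.14% of all genes). Against empty vector 0 of 9 passed after adjustment (0% of all genes) and the same 2 before it (5.84%). Scramble against empty vector gave 0 of 9 after adjustment (0% of all genes) and 0 of 9 before it (1.93%). The largest difference between the controls was that of Irf4, 0.30 (95% interval -0.30 to 0.89), set by scramble replicate 1 at a level below background. These comparisons share arrays and are not independent of each other.

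The 8 genes whose pattern was closest to that of Irf7 over the 8 arrays were Oasl2, Usp18, Bst2, Xaf1, Rtp4, Gbp7, Samd9l and Apol9a, in that order. Likeness was the root mean square, over arrays, of the difference between the genes in their log2 deviation from their own control mean. It was 0.484 for Oasl2 and 1.22 for Apol9a among 6519 candidates whose mean over the arrays was above background. Irf9 ranked 59 of all genes with 1.71, while the other members stood at 2.55 to 2.94. Since likeness was measured on these values, the levels and array order of the 8 genes follow largely from the choice. They are a description. Oasl2, a member of the oligoadenylate synthetase family, measured 12.40 to 12.52 in the controls and 7.38, 9.08, 8.64 and 10.64 in shIRF7 replicates 1 to 4. Usp18, an ISG15 protease that also damps the interferon receptor, measured 10.86 and 11.99 with empty vector, 11.31 and 12.09 with scramble, and 7.24, 7.40, 7.24 and 9.73 in shIRF7. Bst2, or tetherin, was the only one of the 8 that passed in limma (-2.89, SE 0.30, adjusted p = 0.0483). It measured 10.30 and 10.23 with empty vector, 9.21 and 9.62 with scramble, and 6.76, 6.67, 6.52 and 7.84 in shIRF7. No shIRF7 array exceeded the 95th percentile of negative controls for Bst2, and with its values raised to that percentile the fold was 2.73. For the other 7 the differences lay between -3.66 (Usp18) and -2.24 (Samd9l), with adjusted p-values from 0.148 (Usp18) to 0.342 (Gbp7). Usp18, Rtp4 and Gbp7 exceeded that percentile on 1 shIRF7 array each, and with lower values raised to it their folds were 7.05, 4.62 and 3.32. Oasl2 exceeded it on 3 shIRF7 arrays, and its fold was 10.3 in the same way. These folds compare means and carry no sampling error. The limma 95% intervals of Usp18, Oasl2, Rtp4 and Gbp7 had upper ends of -2.26, -2.10, -1.19 and -0.91. In 6 of the 8 shIRF7 replicate 1 was the lowest array, and in 6 replicate 4 was the highest. The choice by likeness to the measured Irf7 favours this order, so it is no separate result. The probes of Apol9a and Gbp7 may also detect closely related copies, so their values are uncertain.

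**Figure D3:**
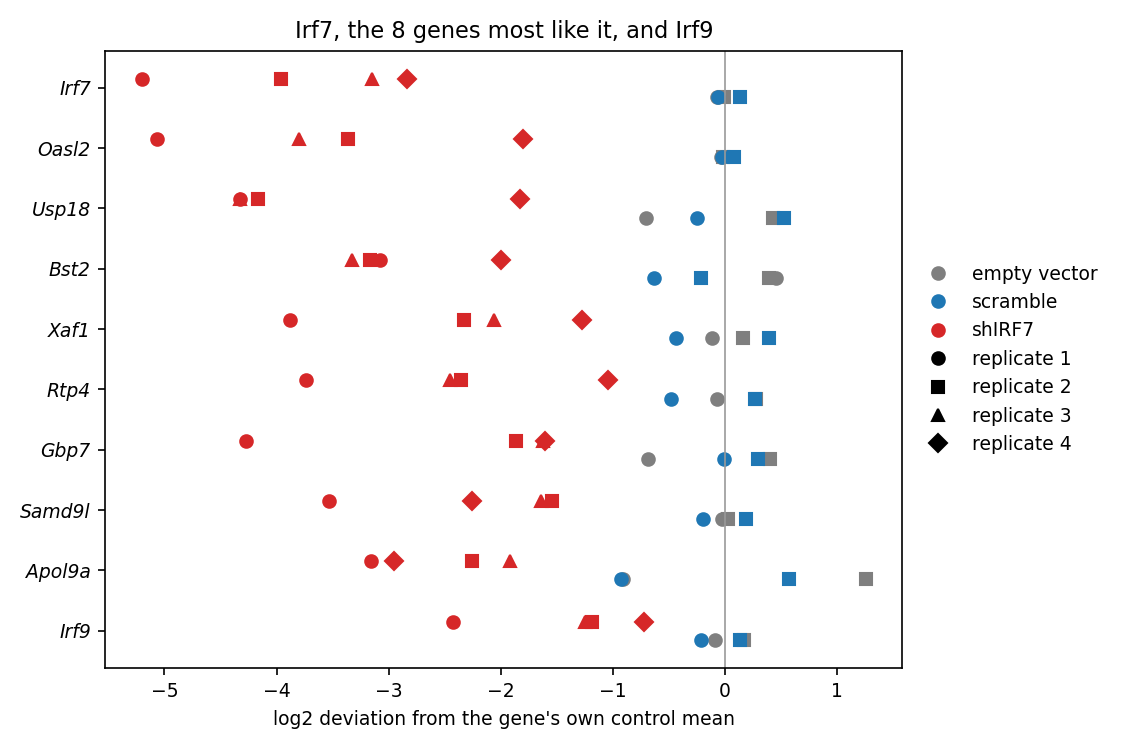
Log2 deviation from each gene's own control mean (x axis) for Irf7, the 8 genes most like it and Irf9, with arrays as points, group as colour and replicate number as symbol. All shIRF7 points lie to the left of all control points in each row. Replicate 1 is the lowest measured shIRF7 array in Irf7, Irf9 and 6 of the 8 genes, which were chosen for likeness to Irf7 on these arrays.

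Upstream sequences are shown because Irf proteins read GAAA repeats, and because Irf7, Irf9 and the genes above were lower on the same arrays. RefSeq promoter windows (build GRCm38.p6, 250 bases before to 50 after a gene start) were available for 9 of 9 members (12 windows) and for 6 of the 8 genes (Usp18 and Rtp4 were not matched). Both strands were searched for AANNGAAA, the Irf core, and GAAANNGAAA, a pair of GAAA units, each match of which also contains the core. The core was present in 23.9% of all 32851 windows and in at least 1 window of 26.7% of all 27025 genes, and the pair in 3.44% of windows and 3.99% of genes. Among the members 2 genes held the core (Irf2 and Ifnb1) and Irf2 alone held the pair. Of the 6 genes most like Irf7 with a window 5 held the core, and Bst2, Gbp7 and Apol9a held the pair. The windows of Irf7 and Irf9 held neither, which says only that these letters are not in them. Capitals below mark core matches on either strand, positions in the text count back from the gene start (-1 is the base before it), and each sequence reads 5′ to 3′ on the gene's strand.
Irf7, chr7:141266425-141266574, minus strand: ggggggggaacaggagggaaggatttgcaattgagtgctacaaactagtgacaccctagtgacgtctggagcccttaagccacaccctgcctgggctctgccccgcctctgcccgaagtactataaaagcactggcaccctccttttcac
Irf9 of the first of 2 starts, chr14:55603835-55603984, plus strand: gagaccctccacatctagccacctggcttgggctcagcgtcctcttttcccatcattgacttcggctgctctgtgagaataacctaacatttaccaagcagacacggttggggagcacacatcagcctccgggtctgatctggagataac
Ifnb1, chr4:88522890-88522964, minus strand: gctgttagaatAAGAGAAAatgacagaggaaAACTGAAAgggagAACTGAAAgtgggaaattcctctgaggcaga
Irf2, chr8:46739495-46739544, plus strand: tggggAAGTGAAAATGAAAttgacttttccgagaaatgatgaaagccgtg
Bst2, chr8:71537578-71537637, minus strand: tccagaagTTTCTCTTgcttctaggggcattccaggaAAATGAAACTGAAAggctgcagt
Gbp7, chr3:142530266-142530315, plus strand: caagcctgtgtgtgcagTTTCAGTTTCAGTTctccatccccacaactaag
Apol9a of the first of 2 starts, chr15:77411111-77411160, minus strand: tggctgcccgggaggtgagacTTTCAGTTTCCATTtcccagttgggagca

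The 150 bases before the gene start are shown for Irf7 and Irf9 as the members with the largest differences. For Ifnb1, Irf2, Bst2, Gbp7 and Apol9a a stretch with matches is shown. The core matches of Xaf1 and Samd9l, and that of Gbp7 at -231, are not printed. The Ifnb1 stretch holds 3 core matches on the sense strand, at -159, -139 and -126, and Ifnb1 was under background on all 8 arrays. In Bst2 a run of overlapping GAAA units on the sense strand lay between -130 and -115, and in Gbp7 and Apol9a the overlapping matches lay on the opposite strand. Irf2, which carried a pair of units from -241 to -232, differed by -0.31 in shIRF7 and its groups overlapped.

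Genes around the Irf family were read from 7 lists of 102 genes, 90 of them measured, and only Bst2 among them passed in limma over all genes. Of sensors, adaptors and kinases that activate Irf3 and Irf7, 0 of 16 passed, 5 lay below all controls (2.8% of all genes did) and 1 above (2.58% of all genes), with a median difference of -0.21 (-0.28 within replicate 1 and -0.19 within replicate 2) against 0.0017 over all genes. The 5 were the RNA sensors Ifih1 (-2.11, SE 0.29, adjusted p = 0.0737), Dhx58 (-1.92, SE 0.34, adjusted p = 0.174) and Ddx58 (-0.96), the endosomal receptor Tlr3 (-1.24) and the ubiquitin ligase Trim25 (-0.83). The 1 above was Mavs (0.37), the adaptor of the RNA sensors, and the kinase Tbk1, which phosphorylates Irf3 and Irf7, differed by 0.24. Ddx58, Tlr3, Trim25, Mavs and Tbk1 were picked after their values were seen.

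Of the other interferon genes, 0 of 18 exceeded the 95th percentile of negative controls on any array, 0 passed, and the median difference was -0.027. Unlike Ifnb1, Ifna5 (5.86 to 6.95) was above the negative control median on all 8 arrays. It differed by 0.15 and its groups overlapped. Ifnz (-1.06, adjusted p = 0.268) and Ifnl3 (-0.35, adjusted p = 0.59) were the 2 of 18 below all controls (2.8% of all genes), but at mean levels of 3.93 and 4.36 in shIRF7, near or under the negative control medians. The Ifna genes are near-identical and their probes may not separate them. Among 9 receptors, Jak kinases and Stat factors 0 passed and the median was -0.18 (replicate 1 alone -0.54, replicate 2 alone -0.19). Jak1 and Jak2, kinases of the interferon receptors, were the 2 of 9 below all controls (2.8% of all genes), with differences of -1.35 (SE 0.17, adjusted p = 0.0692) and -1.04 (SE 0.16, adjusted p = 0.111). Jak1 measured 11.17 to 11.38 in the controls and 9.91, 10.20, 10.12 and 9.57 in shIRF7 replicates 1 to 4. Replicate 4, the highest shIRF7 array for Irf9, was thus the lowest for Jak1. The receptor chains Ifnar1 and Ifnar2 differed by 0.13 and -0.18 with overlapping groups. Stat2, the partner of Irf9 in ISGF3, averaged 10.89 in the controls and 9.90 in shIRF7 (adjusted p = 0.757), with overlapping groups and differences of -2.26 within replicate 1 and -0.79 within replicate 2. Stat2, Ifnar1 and Ifnar2 were picked after their values were seen.

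Among 15 measured textbook targets of Irf3, Irf7 and ISGF3 the median difference was -1.47 (-1.40 within replicate 1 and -2.09 within replicate 2). Bst2 fell, 14 did not pass, and 14 of 15 had a negative sign, as had 9694 of all 19505 genes. Of the 15, 8 lay below all controls where 2.8% of all genes did. Leaving out each array in turn, 8 to 10 of the 15 lay below all controls, where 3.77% to 6.05% of all genes did. Ifit1, which binds foreign RNA, measured 9.71 to 10.65 in the controls and 5.27, 6.18, 6.42 and 8.44 in shIRF7 (-3.50, SE 0.63, adjusted p = 0.174). Isg15, a ubiquitin-like modifier, differed by -2.68 (SE 0.48, adjusted p = 0.174) and the antiviral GTPase Mx2 by -1.78 (SE 0.26, adjusted p = 0.100), each above the 95th percentile of negative controls on 1 array only. The chemokine Cxcl10 and the antiviral enzyme Rsad2 were never above that percentile, differed by -0.056 and -0.14, and their groups overlapped. Ifit1, Isg15, Mx2, Cxcl10 and Rsad2 were picked after their values were seen. Among 11 measured targets of Irf1 the median was -0.34 (replicate 1 alone -0.53, replicate 2 alone -0.19) and 0 passed. Tap1, the peptide transporter of antigen presentation, differed by -1.64 (SE 0.29, adjusted p = 0.174), and Psmb8, an immunoproteasome subunit, by -1.69 (adjusted p = 0.488), with values of -3.68 in replicate 1 and -0.31 in replicate 2, although it was above the 95th percentile of negative controls on 0 of 8 arrays. These were the 2 of 11 Irf1 targets below all controls (2.8% of all genes). The count was 4 of 11 without scramble replicate 2 (4.13% of all genes) and also without shIRF7 replicate 4 (3.83%). Of 12 Irf partners and corepressors 0 passed and the median was -0.054, with Jun, a component of the Ifnb1 enhancer complex, at -0.59 (adjusted p = 0.379) and the Irf2-binding corepressor Irf2bp1 at -0.52 (adjusted p = 0.587). Of 11 negative regulators 0 passed and the median was -0.048. Usp18 differed by -3.66 (adjusted p = 0.148) and Trim21, a ubiquitin ligase that acts on Irf proteins, by -0.71 (adjusted p = 0.627). Trim21 and Irf2bp1 exceeded the 95th percentile of negative controls on 0 of 8 arrays. Usp18 is on 2 lists, and several targets were known from earlier results to be lower, so these counts are a description.

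**Figure D4:**
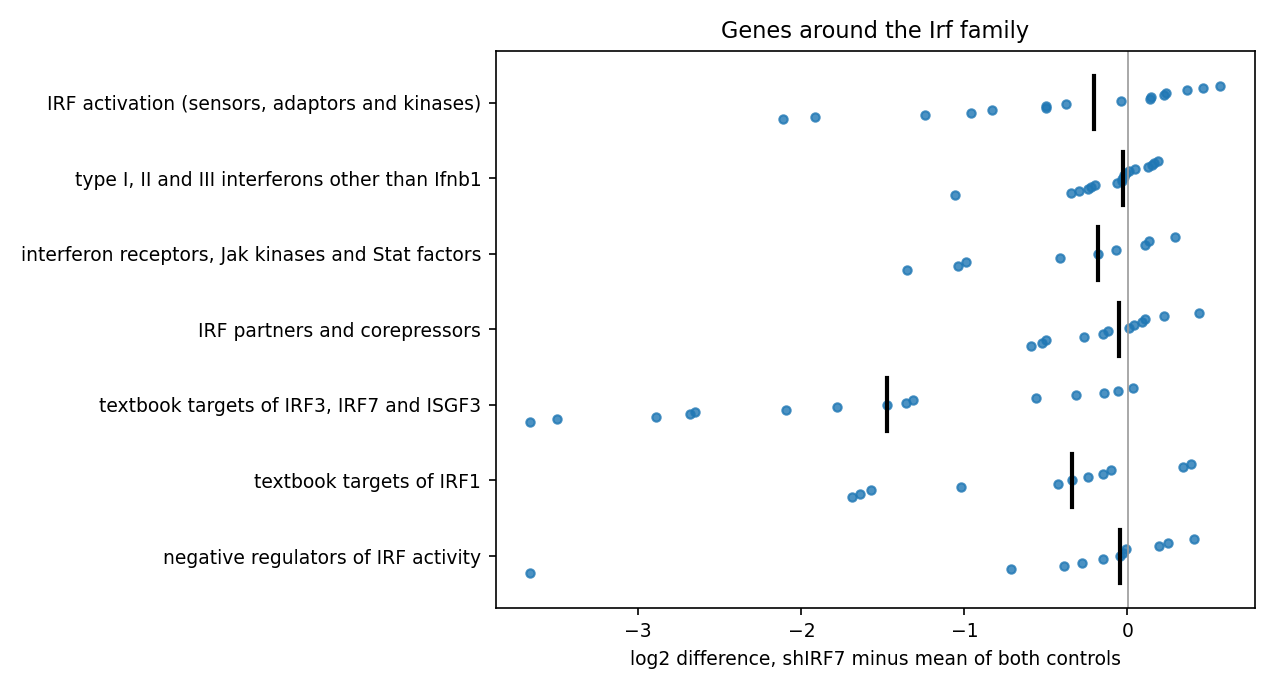
Log2 difference (x axis) of each measured gene of the 7 lists in shIRF7 minus the mean of both controls, with the list median as a black bar and the median of all genes as a grey line. The targets of Irf3, Irf7 and ISGF3 have a median of -1.47, the sensors and kinases -0.21, and the interferon genes -0.027.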

How the data were processed

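The authors deposited 1 log2 value per probe set and array, made by RMA; per the submitters' processing notes the software was Expression Console 1.4.1.46 of Affymetrix. RMA corrects background, equalises the arrays and summarises probes, so it compresses differences near background. The log2 scale was read from the values (1.66 to 18.9). No genome build for the array design was found in the labels, and 0 sample columns were left unused. Of 28846 probe sets 19572 carried 1 gene symbol and 9274 none, and all 19572 were renamed through RefSeq GRCm38.p6. A gene with several probe sets was represented by that with the highest mean (19505 genes).

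A mean per group was fitted over all 8 arrays in limma 3.58.1 (R 4.3.3) with eBayes, 5 residual and 2.68 prior degrees of freedom, and Benjamini-Hochberg adjustment over all genes (threshold 0.05). The fit was tested on simulated data. Named were all members, per list the genes that passed (at most 4) or the 2 with the largest difference, and the 8 genes most like Irf7, leaving out predicted genes. Members and lists were chosen with earlier results of these data known. The alternatives were a filter on dim genes, another variance model, cyclic loess, negative control centring, a floor, the mean of probe sets, pooled controls, a replicate block and leaving out each array. The number of arrays limits the precision. Promoter sequences are from RefSeq (GRCm38.p6).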

Additional observations from a re-analysis of the deposited data

Results flagged for a closer look

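Irf3 in shIRF7 replicate 4 stood apart from the other shIRF7 arrays. It measured 8.58 against 7.79, 7.80 and 7.81, so its gap to the nearest array made up 0.969 of the range of the group, above Dixon's 95% critical value for 4 arrays. Chance alone passes that value in a small share of groups, and 9 genes were examined. Replicate 4 was also the shIRF7 array with the highest Irf9, but not with the highest Irf1 (9.90 against 10.17 in replicate 2).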

How the results depend on the processing

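Under 16 alternatives Irf7, Irf9 and Irf2 kept a negative difference wherever they could be fitted (Irf7 is dropped by the filter on dim genes). Irf7 passed the threshold with negative control centring (-3.79), with a floor at the negative control percentile (-1.23) and with both controls as 1 group (-3.79), and ranged from -4.10 to -3.31 when single arrays were left out. Irf9 passed with the floor. The number of genes that passed in shIRF7 against both controls, 6, became 3 with the filter, 3 with trend and robust fitting, 2 with cyclic loess, 14 with centring, 123 with the floor, 28 with both controls as 1 group and 0 to 28 without single arrays. Against scramble the 1 gene became 0 with the filter or with trend and robust fitting, 62 with the floor and 0 to 8 without single arrays. Against empty vector 0 became 2 with centring, 30 with the floor and 0 to 3 without single arrays.

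With the replicate number as a replicate block 0 genes passed in shIRF7 against both controls (691 at an unadjusted p under 0.05 in limma) and 0 against scramble, Irf7 differed by -4.58 and Irf3 by -0.055. The numbers were not taken to pair the arrays. Replicate 1 minus replicate 2 correlated over genes at 0.757 between the controls but at -0.29 and -0.215 between each control and shIRF7.

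Differences near 0 changed sign when single arrays were left out: Ifnb1 ranged from -0.044 to 0.10, Irf1 from -0.35 to 0.084, Irf3 from -0.049 to 0.212, Irf4 from -0.193 to 0.136 and Irf8 from -0.082 to 0.245. Irf2 ranged from -0.52 to -0.091 and Irf5 from 0.134 to 0.359 without a change of sign. With the floor Irf4, Irf5, Irf8 and Ifnb1 were all at 0.0028, because all their values then equal the floors of the arrays, so that setting says nothing about them. The cause of the other changes, including the higher counts with the floor, was not tested.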
